A study of Homo sapiens with 4 samples.

Results

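To follow the chromatin sites that gained rank in HER2-positive cells under TWEAK, ATAC-seq peak lists of untreated and TWEAK-treated SKBR3 cells were joined into 1 set of sites. ATAC-seq reads out open chromatin by letting the Tn5 transposase cut and tag accessible DNA, and SKBR3 is an established breast cancer line that carries an amplified ERBB2 gene. Of 307691 merged sites, 131751 had a peak in all 4 libraries, and 2936 of these shared sites, here called rising sites, moved up under TWEAK. They were chosen by rank alone. Each peak was given its percentile within the list of its own library, and a site was a rising site when the lower of its 2 TWEAK percentiles exceeded the higher of its 2 untreated percentiles by at least 15 percentile points. That distance is called the margin. Because these values chose the sites, ranks and peak heights are given below as a description with no test. DNA sequence and genomic position were not used by the rule, but both go with peak rank, which bounds how far a site can rise. In the highest quartile of shared sites by mean percentile 0.143% were rising sites, against 3.15% in the lowest quartile.

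All 4 libraries came from SKBR3 cells that were starved for 8 h in Opti-MEM. The 2 TWEAK libraries were then from cells given TWEAK at 10 ng/ml for 48 h with fresh cytokine at 24 h, and the 2 untreated libraries from cells without it. The methods call the cell line replicates biological and state, for the study's cell line work in general, that repeats were run on separate days. The sources do not tie a library to a day or batch. A single established line stands for the subtype here. The peak at the ERBB2 promoter lay at the 100th percentile in all 4 lists after rounding, as did that of GRB7, its neighbour in the amplified segment. Promoter peaks of all 8 luminal or HER2 marker genes examined were present in every list, between the 87.5 and 100 percentile. Among marker genes of other cells, CD3E had no promoter peak, PTPRC had 1 in TWEAK replicate 1 and PECAM1 had 1 in untreated replicate 1 and 1 in TWEAK replicate 1, the last 3 at percentiles from 11.2 to 25.5.

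TWEAK is a cytokine of the TNF family encoded by TNFSF12. It binds the receptor Fn14, encoded by TNFRSF12A, which recruits TRAF adaptors and leads to release of NF-κB factors, with the p52 and RelB dimer as the product of the non-canonical branch. NF-κB dimers bind sequences of about 10 bases that begin with a run of G and end with a run of C, known as κB sites. AP-1, formed by JUN and FOS family proteins and regulated by MAPK signalling, binds a short palindrome-like element found in very many enhancers.

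The sequences below show what some of the rising sites hold around their peak centres. They are hg38 sequence from 100 bp before to 100 bp after the centre of the best peak, printed on the plus strand, for 4 of the 5 rising sites of largest margin with an NF-κB match and for the 2 of largest margin with an AP-1 match only. Each is named after the nearest protein-coding gene, and capitals mark the match, which in NT5DC3 lies at the edge of the window. The capitals read as the reverse complement of the κB form in DNMT3A and in the second match of EFNB2.
DNMT3A, NF-κB, chr2:25273724-25273924: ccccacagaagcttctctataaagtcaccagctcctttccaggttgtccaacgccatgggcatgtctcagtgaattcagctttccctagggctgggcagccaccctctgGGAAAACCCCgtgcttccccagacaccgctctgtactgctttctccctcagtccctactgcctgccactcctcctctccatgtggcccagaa
TLE3, NF-κB, chr15:70140666-70140866: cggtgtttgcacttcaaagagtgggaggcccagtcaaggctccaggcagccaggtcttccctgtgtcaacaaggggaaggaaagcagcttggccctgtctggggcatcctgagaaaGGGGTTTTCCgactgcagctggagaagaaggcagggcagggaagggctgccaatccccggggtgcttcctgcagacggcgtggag
TFAP2A, NF-κB, chr6:10387374-10387574: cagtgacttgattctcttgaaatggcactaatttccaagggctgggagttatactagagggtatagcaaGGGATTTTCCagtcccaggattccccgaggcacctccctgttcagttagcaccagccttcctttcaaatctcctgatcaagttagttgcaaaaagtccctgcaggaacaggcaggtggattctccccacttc
EFNB2, NF-κB, 2 matches, chr13:106374050-106374250: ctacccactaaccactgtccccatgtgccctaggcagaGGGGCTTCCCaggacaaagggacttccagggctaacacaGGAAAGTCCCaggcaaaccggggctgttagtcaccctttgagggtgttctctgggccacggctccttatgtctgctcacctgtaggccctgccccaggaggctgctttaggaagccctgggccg
SDK1, AP-1, chr7:3956170-3956370: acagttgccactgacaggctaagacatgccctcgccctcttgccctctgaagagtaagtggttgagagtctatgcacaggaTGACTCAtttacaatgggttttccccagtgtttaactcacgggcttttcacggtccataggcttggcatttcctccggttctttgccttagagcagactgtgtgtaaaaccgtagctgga
NT5DC3, AP-1, chr12:103882965-103883165: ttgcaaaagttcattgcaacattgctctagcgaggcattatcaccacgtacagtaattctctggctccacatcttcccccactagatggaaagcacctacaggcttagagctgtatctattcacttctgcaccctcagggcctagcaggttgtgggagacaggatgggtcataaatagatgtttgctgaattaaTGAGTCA
EFNB2 encodes the Eph receptor ligand ephrin-B2, and its second match reads GGAAAGTCCC as printed. DNMT3A encodes a de novo DNA methyltransferase, and its window lies in an exon of a retained-intron transcript. The windows of TLE3, which encodes a Groucho-type co-repressor, and of TFAP2A and EFNB2 are intergenic.

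The peak lists held between 195388 and 228734 peaks per library. The value deposited for each peak is a -log10 p-value from the authors' peak caller, and it depends on depth. From its steps, each value could be turned back into a whole-number pileup, the height of the stacked reads, and a background pileup that was constant within a list. The background was 3.59 and 2.24 in untreated replicates 1 and 2, and 2.63 and 1.85 in TWEAK replicates 1 and 2. Peak heights are therefore given as fold over background, which is the pileup divided by that background.

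Rising sites sat in the lower part of the untreated lists and in the upper part of the TWEAK lists. Their median percentile was 35.6 in untreated replicate 1 and 37.4 in untreated replicate 2, against 70.0 and 69.2 in the 2 TWEAK libraries. On the fold scale, the median height was 5.30 and 5.82 times background in the untreated libraries and 16.7 and 20.03 times background with TWEAK. Every one of the 2936 sites had both TWEAK folds above both untreated folds. The ratio of the mean TWEAK fold to the mean untreated fold had a median of 2.98, with 2.20 at the 10th percentile and 5.36 at the 90th. Over all shared sites the median of this ratio was 1.10, so that fold values as a whole were slightly higher in the TWEAK lists. The margin had a median of 21.8 points and reached 76.0, with 681 sites at 30 points or more and 71 at 50 or more. Within the rising sites the 2 TWEAK percentiles differed by a median of 2.83 points and the 2 untreated ones by 6.55 points. Over all shared sites the order was the opposite, with 4.08 points for TWEAK and 3.63 points for untreated.

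**Figure D1:**
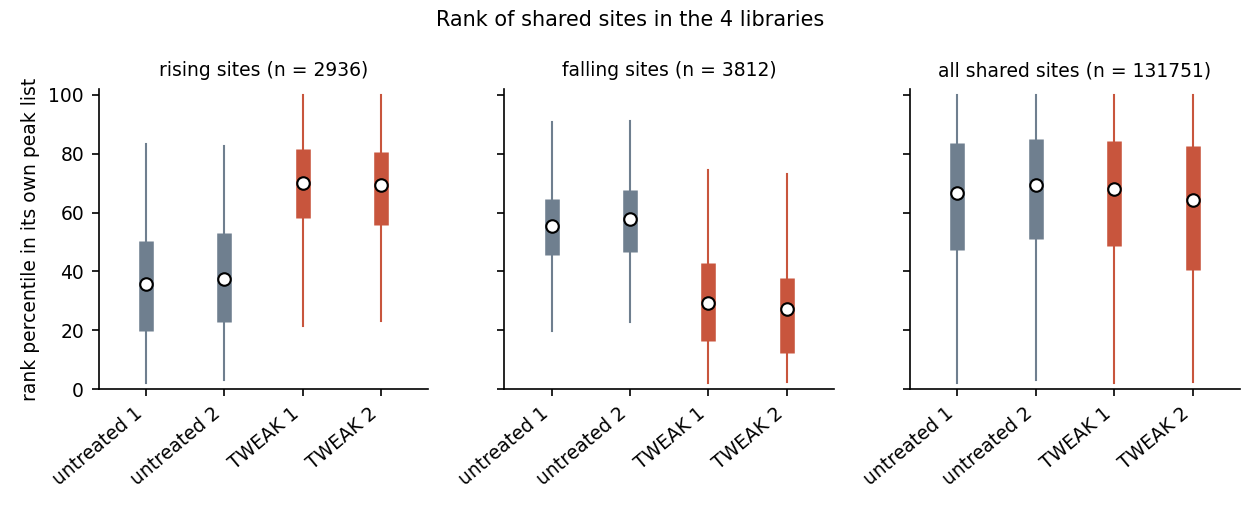
Rank percentile of rising, falling and all shared sites in each of the 4 libraries, with the white point at the median, the thick bar from the first to the third quartile and the thin line from the lowest to the highest site. The medians of the rising sites are 35.6 and 37.4 in the untreated and 70.0 and 69.2 in the TWEAK lists, and the rule that chose the sites sets this gap.

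The rising sites made up 2.23% of the shared sites. With the mirrored rule, 3812 sites, or 2.89%, fell by the same margin, and they are called falling sites here. The same rule applied across treatments gave far fewer sites. Untreated replicate 1 with TWEAK replicate 1 stood above the other 2 libraries at 396 sites (0.301%), and the reverse held at 218 (0.165%). Untreated replicate 1 with TWEAK replicate 2 stood above at 108 sites (0.082%), and the reverse at 811 (0.616%). Summed over both directions, grouping by treatment gave 6748 sites against 614 and 919 for the 2 other groupings. Which direction prevailed depended on the scale, the threshold and the libraries. At a margin of 20 points 1752 sites rose and 1654 fell, and with only peaks of -log10 p of at least 5 the counts were 3783 and 2849. Without untreated replicate 1, 5929 rose and 10703 fell, and without untreated replicate 2, 7743 rose and 6377 fell. Without TWEAK replicate 1 the counts were 3856 and 16124, and without TWEAK replicate 2 they were 5584 and 8587. A ratio of at least 1.5 between the lower TWEAK fold and the higher untreated fold held at 8280 shared sites (6.28%), and the mirrored ratio at 1009. When percentiles were computed over shared sites alone, 5005 rose and 2859 fell.

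Of the rising sites, 2892 (98.5%) also met the ratio of 1.5, whereas 778 of the 3812 falling sites (20.4%) met it in the other direction. The median ratio of mean folds, untreated over TWEAK, was 1.54 in the falling sites. In the untreated lists, 51.4% and 50.4% of rising sites had a pileup below 2 times the lowest one listed. With TWEAK the shares were 2.01% and 2.18%. Over all shared sites they were 14.98% and 13.66% untreated and 12.86% and 17.35% with TWEAK. Falling sites had the mirrored contrast, with 10.8% and 12.4% untreated and 58.1% and 63.7% with TWEAK. The rule picks rising sites by untreated ranks below their TWEAK ranks, so it favours this contrast. Many untreated peaks of the rising sites were close to the detection limit. Depth differed between the libraries, and its part in the counts was not tested. At the threshold, the members just inside were near PTPRG, TMEM170B and ZDHHC14, all with a margin of 15.0046 points. The PTPRG site stood at percentiles 35.6 and 40.8 untreated and 55.8 and 58.6 with TWEAK. The sites just outside were near VWF, CYP27A1 and RASGEF1B, with margins from 14.994 to 14.9999. The VWF site stood at 71.3 and 74.3 untreated and at 89.3 and 89.7 with TWEAK.

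**Figure D2:**
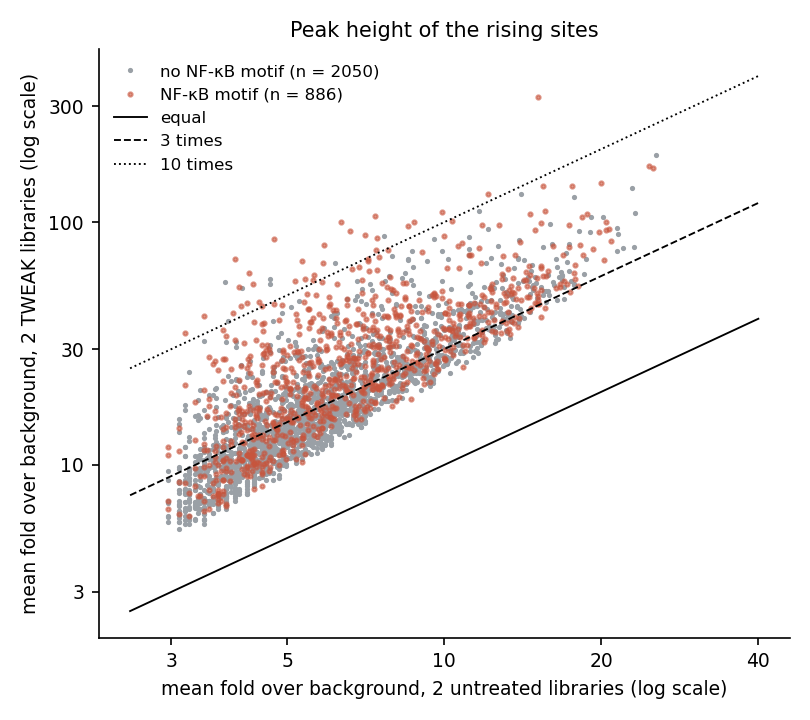
Mean fold over background of the 2936 rising sites in the 2 untreated libraries (x axis, log scale) and the 2 TWEAK libraries (y axis, log scale), with sites holding an NF-κB motif in red. All points lie above the line of equal height, and 886 of them hold the motif.

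Sequence was not used by the rule, and 18 motifs were searched on both strands within 100 bp of the peak centre. NF-κB was the motif with the highest ratio of rising to all shared sites. It was found in 886 of the 2936 rising sites, or 30.2% (95% Wilson interval 28.5 to 31.9), in 7855 of all shared sites (5.96%) and in 96 of the falling sites (2.52%). AP-1, searched as TGACTCA, was found in 685 rising sites, or 23.3% (21.8 to 24.9), against 10.6% of all shared and 3.49% of falling sites. Sites are not replicates and neighbours are not independent, so these intervals cover counting error over sites only.

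The element of C/EBP factors, searched as TTGCNNAA, came next in number of sites. It was present in 19.7% of rising sites (18.3 to 21.2), 11.6% of all shared and 11.5% of falling sites. The NFE2 and small MAF element, TGCTGAGTC or TGCTGACTC, which shares letters with AP-1, was present in 62 rising sites (2.11%) against 1.08% of all shared sites, and 52 of those 62 sites also held the AP-1 letters. RUNX (TGTGGTT) was at 5.55% of rising, 4.08% of all shared and 4.07% of falling sites, and GRHL (AACCGGTT or AACCTGTT) at 2.35%, 1.73% and 0.735% in the same order. TEAD (ACATTCC) was above its share of all shared sites in both directions, with 7.39% of rising, 5.74% of all shared and 7.06% of falling sites. The element of GATA factors, AGATAA, stood at 8.07% of rising and 6.90% of all shared sites and was highest in falling sites, at 8.42%. ISRE (GAAANNGAA) was at 5.62%, 4.97% and 4.88% of rising, all shared and falling sites, and STAT (TTCCNGGAA) at 1.12%, 0.893% and 0.839%.

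Other motifs were less common in rising than in all shared sites. TFAP2 (GCCNNNGGC), the motif of luminal regulators, was present in 10.4% of rising, 14.5% of falling and 15.03% of all shared sites. FOXA (TGTTTAC), the pioneer factor of luminal enhancers, was present in 6.20% of rising sites (5.38 to 7.13), 10.6% of falling and 6.80% of all shared sites. Its interval in rising sites includes the share of all shared sites. The CTCF letters AGGGGGCGC, those of the insulator protein, were in 0 of the 2936 rising sites, which allows a share of up to 0.131%, against 0.897% of all shared sites and 0.184% of falling sites. Motifs typical of promoters were rare in rising and falling sites alike. SP/KLF (GGGGCGGGG) was at 0.715% of rising, 0.787% of falling and 3.73% of all shared sites, ETS (CCGGAAGT) at 0.307%, 0.184% and 0.937%, and NRF1 (GCGCATGCG) at 0.0341%, 0.0262% and 0.361%. The CRE (TGACGTCA) was at 0.307% of rising sites (0.161 to 0.582), 0.131% of falling and 0.502% of all shared sites, the last within the interval. The E-box (CACGTG) was at 2.25%, 3.91% and 3.83% in the same order. A match marks letters in a window and not a bound factor.

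The NF-κB share rose along the whole scale of rank change. It was 1.61% in sites that fell by 30 points or more, 5.26% where the 2 groups overlapped, 7.95% at a margin up to 5 points and 13.4% from 5 to 15 points. Among the rising sites it was 25.9% from 15 to 30 points, 41.8% from 30 to 50 points and 66.2% (54.6 to 76.1), or 47 of 71 sites, at 50 points or more. The AP-1 share followed another course. It was 10.3% where the groups overlapped, 20.6% at a margin up to 5 points, 24.4% from 5 to 15 points, 23.8% from 15 to 30 and 22.5% from 30 to 50 points, with 15.5% (8.88 to 25.7) in the last bin. AP-1 was thus about as common at a margin of 5 to 15 points as at 15 to 30 points, whereas NF-κB was most common at the largest margins.

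**Figure D3:**
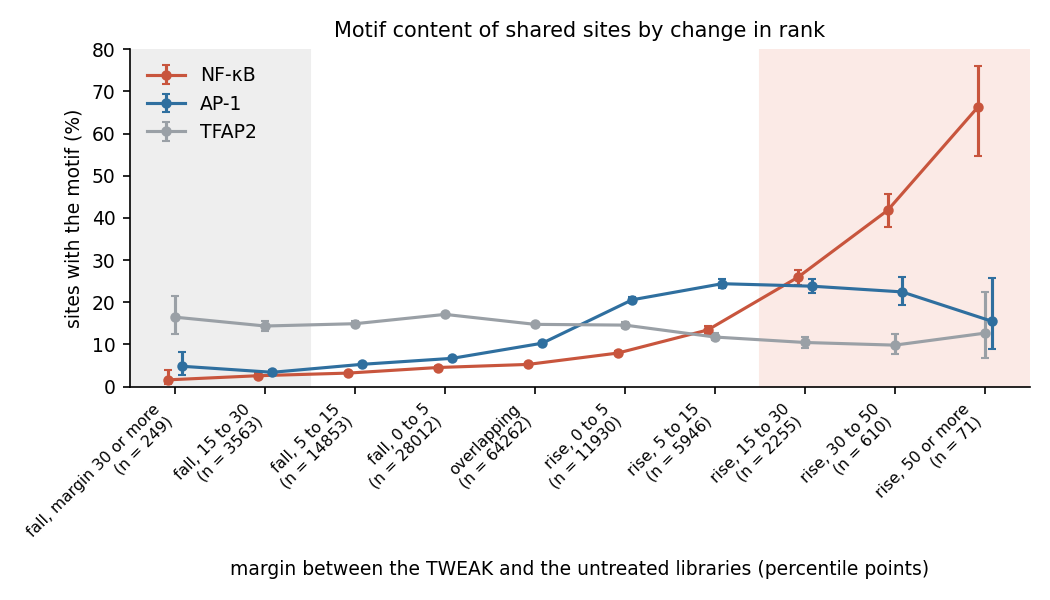
Share of shared sites with an NF-κB, AP-1 or TFAP2 motif (y axis, %) by the margin between TWEAK and untreated libraries (x axis, percentile points, with the number of sites), with 95% Wilson intervals, grey shading for falling and red for rising sites. NF-κB goes from 1.61% to 66.2%, while AP-1 stays between 15.5% and 24.4% in all bins on the rising side.

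Peak height and base composition moved with the groups and are given beside these shares. Median GC content of the window was 47.3% in rising, 46.3% in falling and 50.2% in all shared sites. Within the lowest to highest GC tertile, the NF-κB share of rising sites was 19.9%, 32.8% and 50.6%, against 2.64%, 5.57% and 9.83% of all shared sites in the same tertiles. Within quartiles of the mean percentile over the 4 libraries, from lowest to highest, it was 19.8%, 30.7%, 44.4% and 55.3%, against 5.35%, 5.50%, 6.10% and 6.90% of all shared sites. The last of these quartiles held 47 rising sites. The difference in share was therefore present at every level of GC and of peak rank.

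Seen from the motif, 1.65% of shared sites without NF-κB were rising sites, 10.9% of those with 1 match and 18.6% of those with 2 or more. Sites with both NF-κB and AP-1 were rising sites in 20.7% of cases (136 of 657), those with NF-κB without AP-1 in 10.4%, those with AP-1 without NF-κB in 4.11% and those with neither in 1.36%. Falling was less common with either motif, at 1.22% of NF-κB sites and 0.9496% of AP-1 sites, against the 2.89% of all shared sites. Both motifs together were found in 4.63% of rising sites, against 7.04% given by the product of the 2 shares. The same values were 0.499% against 0.634% in all shared sites, so both were below the product.

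No NF-κB or AP-1 match was found in 1501 of the rising sites (51.1%), nor in 83.9% of all shared sites. In these 1501 sites the C/EBP letters were present in 359, or 23.9% (21.8 to 26.1), against 11.95% of the 110547 shared sites without either motif and 11.8% of such falling sites. TEAD letters were in 7.99% against 5.72%, GATA in 9.06% against 6.97% and GRHL in 3.26% against 1.78%. SP/KLF was in 0.400% against 3.87%. Among falling sites without either motif the shares were 7.14% for TEAD, 8.45% for GATA, 0.753% for GRHL and 0.809% for SP/KLF.

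The sites grouped by motif can also be followed in all 4 lists. These values come from the same ranks as the rule, and rising sites are among the sites counted, so they are a description with no test. Over the 7855 shared sites with NF-κB, the mean percentile minus that of shared sites without it was -0.874 and -1.015 points in the untreated libraries and 5.25 and 6.04 points in the TWEAK libraries. The groups did not overlap, with means of -0.945 ± 0.0994 and 5.64 ± 0.555 (SD, n = 2) and a difference of 6.59 points. For the 14006 sites with AP-1, the same value was -0.571 and 0.1503 untreated and 4.74 and 5.45 with TWEAK, a difference of 5.30 points.

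The κB forms differed in how often their sites rose. Of 100 forms of the consensus found in shared sites, 29 had more than 10% of their sites among the rising ones and 24 had none. The form in the most rising sites was GGGACTTTCC, the reverse complement of the second EFNB2 match. It was in 233 shared sites, and 106 of them (45.5%, 39.2 to 51.9) were rising sites. GGGGAATTCC followed with 92 of 232 (39.7%), and GGGGATTTCC with 70 of 173 (40.5%). Further forms with many rising sites were GGGAAATTCC (64 of 298), GGGAATTTCC (63 of 241), GGGGCTTTCC (57 of 205), GGGATTTTCC (48 of 159) and GGGAAGTCCC (48 of 211). Forms that were as common in open chromatin, yet seldom in rising sites, were GGGAGGCTCC with 6 of 249 (2.41%), GGGAGCCTCC with 1 of 207 and GGGAGGCCCC with 2 of 205.

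The forms were also pooled by their middle letters, a grouping set with their values known. Counted from the first G as position 1, forms with TT at positions 7 and 8 had 21.3% of their sites rising when position 4 was G and 18.3% when it was A. Forms with other letters there had 2.51% when position 4 was G and 8.42% when it was A. Single forms departed from these pooled shares. GGGAATTCCC, without TT there, had 41 of 116 sites rising (35.3%), whereas GGGAACTTCC, with it, had 4 of 119 (3.36%). A more restrictive κB search with GGGANTTTC found a match in 10.6% of rising sites, 1.18% of all shared sites and 0.210% of falling sites.

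Matches in rising sites were concentrated at the peak centre. An NF-κB match lay in a given 25 bp stretch beside the centre in 6.69% of rising sites, against 0.715% at 200 to 250 bp from it, a ratio of 9.36. The same ratio was 1.41 in all shared sites and 0.754 in falling sites. For AP-1 it was 10.1 in rising sites, 5.34 in all shared sites and 1.37 in falling sites. AP-1 matches were thus centred in shared sites as a whole, whereas NF-κB matches were centred far more in rising than in all shared sites, and this difference was described and not tested.

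**Figure D4:**
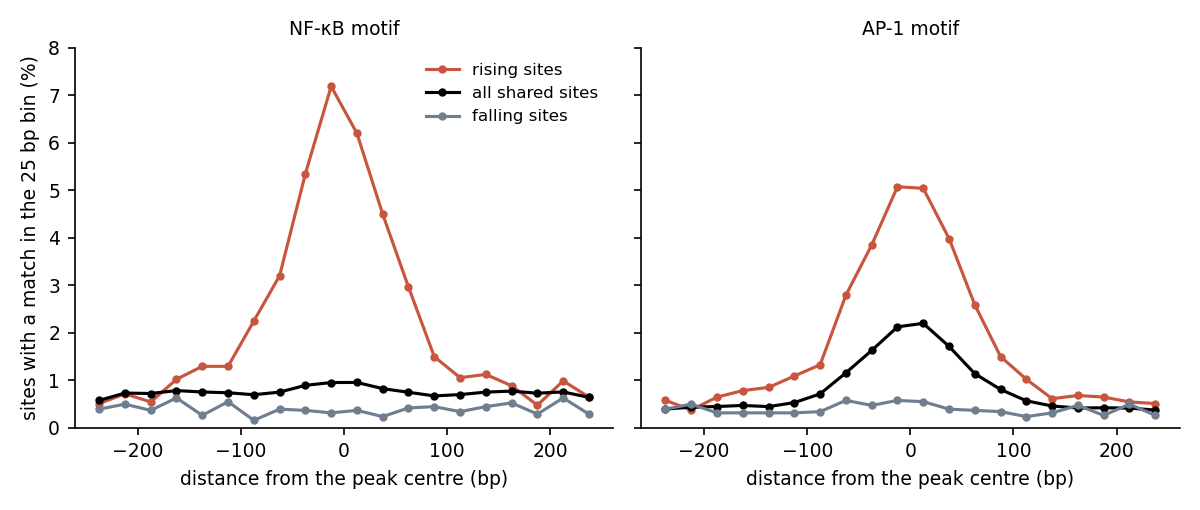
Share of sites with an NF-κB (left) or AP-1 (right) match in each 25 bp bin (y axis, %) by distance from the peak centre (x axis, bp), for rising, all shared and falling sites. In rising sites the NF-κB curve reaches 7.19% just left of the centre and lies at 0.715% on average 200 to 250 bp away.

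The rising sites were mostly distal. A promoter, meaning a site within 1 kb of the start site of a protein-coding transcript, was assigned to 231 of them, or 7.87% (6.95 to 8.90), against 20.01% of all shared sites and 9.23% of falling sites. Promoters were 36.2% of the shared sites in the highest quartile of mean percentile, where few sites can rise by 15 points, so part of this gap follows from the rule. Within the lowest quartile promoters were 8.20% of rising and 13.6% of all shared sites, and within the second quartile 7.60% and 12.8%. In the third quartile they were 7.96% and 17.4%, and in the highest, with 47 rising sites, 6.38% and 36.2%. The median distances and classes that follow were not matched for rank. Introns held 39.5% and intergenic sequence 49.8% of rising sites, against 35.7% and 40.9% of all shared sites. The median distance from the centre to the nearest start site was 23077 bp in rising sites, 20216 bp in falling sites and 12624 bp in all shared sites. NF-κB matches were present in every class, in 89 of the 231 rising promoters (38.5%) and in 28.5% of rising intergenic sites. Over all shared sites they were in 8.09% of promoters and 5.56% of intergenic sites. Promoters with NF-κB were rising sites in 4.17% of cases, against 13.9% of sites with NF-κB outside promoters. Without NF-κB, 0.586% of promoters and 1.91% of sites outside promoters were rising sites.

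Rising sites also lay near each other. Another rising site was found within 10 kb of 12.4% of them, whereas 4.46% of all shared sites had one at that distance. For falling sites the same shares were 11.3% and 7.22%. The share of shared sites that rose ran from 1.21% on chromosome 18 to 3.09% on chromosome 21. Chromosome 8, which is rearranged in many breast cancer lines, had 1.47% rising and 3.96% falling sites.

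The 10 sites with the largest margins had margins from 64.0 to 76.0 points. None had an untreated percentile above 27.2 or a TWEAK percentile below 80.9. The lower TWEAK fold was 6.98 to 16.1 times the higher untreated fold. NF-κB matches were in 6 of the 10 sites and an AP-1 match in 1. By position, 4 were intronic, 3 intergenic, 2 at promoters and 1 exonic, and 8 of the 10 are named here.

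At the DNMT3A site the fold over background was 3.35 and 3.58 untreated and 39.9 and 42.2 with TWEAK. The intergenic TLE3 site, 42590 bp from a start site, went from 3.90 and 4.03 to 64.9 and 76.3, and its lower ratio of 16.1 was the highest of the 10. Near TFAP2A, the gene of the luminal transcription factor AP-2α, the folds were 2.79 and 3.58 untreated and 34.9 and 35.2 with TWEAK. In untreated replicate 1 this site had the lowest value its list contains. The untreated values of the 3 sites lay close to the detection limit and the TWEAK libraries lay close together.

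The site in SDK1, which encodes a cell adhesion protein of the immunoglobulin superfamily, had folds of 3.35 and 3.58 untreated and 27.0 and 37.9 with TWEAK, and it was the AP-1 site among the 10. EFNB2 had the longest distance to its gene, 142297 bp, with folds of 3.62 and 4.47 untreated and 50.1 and 58.5 with TWEAK. A promoter among the 10 was that of KRT2, a keratin of differentiated epidermis, at chr12:52650513-52651253. Its folds were 3.90 and 4.47 untreated and 42.5 and 50.4 with TWEAK, and it held an NF-κB match.

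The sites in RFTN2 and TGFA held neither motif and were intronic. RFTN2, a gene of the raftlin family, had folds of 3.62 and 4.03 untreated and 28.1 and 36.3 with TWEAK at chr2:197575951-197577085. TGFA encodes a ligand of the EGF receptor, and its site at chr2:70528882-70529551 had 4.46 and 3.13 untreated and 49.8 and 63.4 with TWEAK. In all 10 sites TWEAK replicate 2 had the highest fold.

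**Figure D5:**
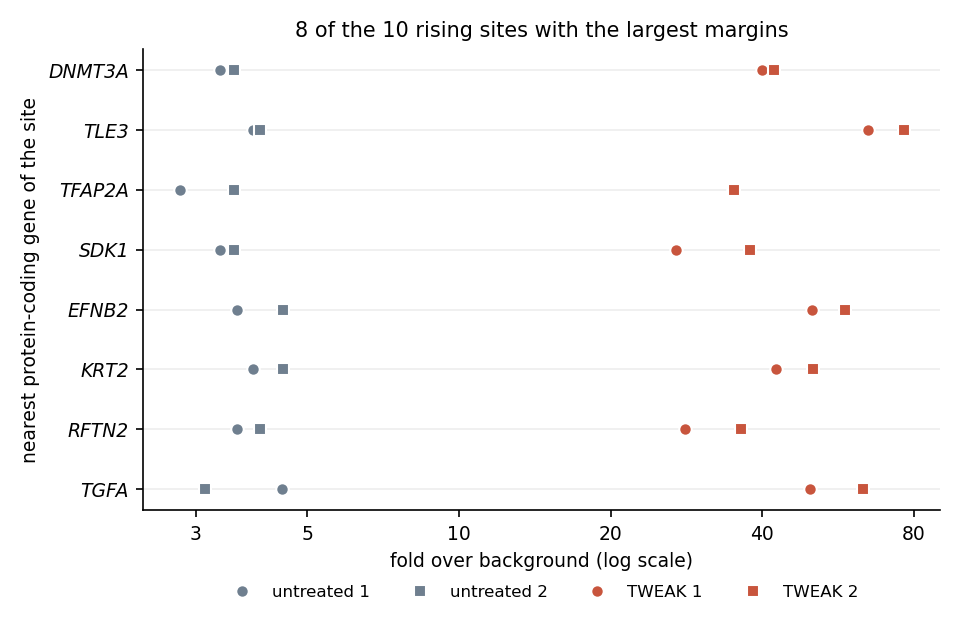
Fold over background (x axis, log scale) of 8 of the 10 rising sites with the largest margins in untreated replicates (grey) and TWEAK replicates (red), with circles for replicate 1 and squares for replicate 2. No untreated value exceeds 4.47 and no TWEAK value is below 27.0, and the 2 TWEAK values of TFAP2A nearly coincide, at 34.9 and 35.2.

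Rank percentiles compress the top of a list, so among the tallest peaks a large change in fold can go with a modest margin. The tallest rising site in the TWEAK libraries, named here after its values were seen, was intergenic and 95308 bp from a start site of HAS2, which encodes hyaluronan synthase 2. Its folds were 15.1 and 15.2 untreated and 295 and 364 with TWEAK, a lower ratio of 19.4, and its margin was 28.6 points. It held an NF-κB match. The next sites in height were near TRPS1, COL14A1 and ZHX2, with margins of 16.4, 17.3 and 16.7 points, and all 4 lay on chromosome 8. Fold was taken over 1 background per list with no adjustment for copy number. The part of copy number in these heights and in the site counts by gene was not tested.

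The rising sites had 2150 nearest protein-coding genes, of which 1663 were nearest to 1 rising site only and 34 to 5 or more. The nearest gene was assigned with no limit on distance, so a count by gene includes sites far from it. EXT1, which encodes a glycosyltransferase of heparan sulfate synthesis, had the most, with 11 of 241 shared sites, and 6 of the 11 held an NF-κB match, while 8 of the 241 fell. The median fold of the 11 was 8.64 and 10.3 untreated and 24.3 and 31.9 with TWEAK. MKLN1, the gene of muskelin, followed with 10 of 97 sites rising, 1 of them with an NF-κB match, and 5 falling. PMEPA1, which encodes an inhibitor of TGF-β signalling, had 8 of 77 rising and none falling, with median folds of 5.44 and 5.82 untreated and 16.7 and 26.5 with TWEAK. Of these 8 sites, 0 were promoters.

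TSHZ2, which encodes a zinc finger protein of the teashirt family, had 8 of 145 sites rising and 3 falling, and TNS3, which encodes the focal adhesion protein tensin 3, had 8 of 117 rising and none falling, with 2 of the 8 at 516027 and 631748 bp. SPIDR, a DNA repair scaffold gene, had 7 of 63 rising and 2 falling, but 4 of the 7 lay 1041747 to 1142538 bp from its nearest start site. SUGCT, a gene of glutarate metabolism, had 7 of 40 sites rising, up to 361279 bp away and 4 with NF-κB, and none falling. JARID2, which encodes a Polycomb repressive complex component, had 7 of 80 rising, up to 426836 bp away, and 3 falling. TRPS1, a GATA-type repressor gene of the luminal lineage, had 7 of 690 sites rising, up to 499237 bp away, or 1.014%, and 48 falling, a lower share of rising sites than the 2.23% of all shared sites. TNIP1, which encodes an A20-binding inhibitor of NF-κB signalling, had the highest share of these genes, 6 of 21 sites (28.6%), and none falling. Of those 6, 4 were promoters, and the median folds were 8.50 and 8.50 untreated and 45.8 and 46.0 with TWEAK.

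For 7 gene lists, the rising sites up to 100 kb from a listed gene's start were counted, and such a site may lie nearer another gene. In the list of NF-κB and TWEAK signalling genes, 26 of 579 shared sites rose, or 4.49% against 2.23% of all shared sites, and 13 fell. The median margin of the list was -5.13 points, against -6.38 of all shared sites, and a negative margin means that the 2 groups overlapped or that the site fell. TNIP1 accounted for 11 of the 26, and without its sites the share was 2.86% (15 of 525). Rising sites were found near 10 of the 23 genes, and 15 of the 26 sites held an NF-κB match.

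The largest margin near NFKB2, the gene of p100 and p52, was 54.8 points. This site, chr10:102405544-102407197, was the promoter of the neighbouring PSD gene, 4953 bp from an NFKB2 start site, with folds of 3.35 and 3.58 untreated and 16.3 and 17.3 with TWEAK. Near RELB, the partner of p52, the largest margin was 42.4 points, at a promoter of CLPTM1 (chr19:44990900-44991790) with an NF-κB match and folds of 5.30 and 3.13 untreated and 23.5 and 30.9 with TWEAK. A site near BCL3, which encodes a nuclear partner of p52, had folds of 4.46 and 4.92 untreated and 17.9 and 28.7 with TWEAK. At the TNIP1 promoter (chr5:151085293-151086916) the folds were 7.81 and 5.82 untreated and 48.6 and 50.9 with TWEAK.

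Further members of the list had smaller margins. The best site was at 37.3 points near NFKBIA, which encodes IκBα, 27.1 near REL, 22.8 near MAP3K14, the gene of the NF-κB-inducing kinase, 21.8 near TNFAIP3, the gene of A20, and 21.4 near CYLD, a deubiquitinase gene. A site near TNFSF12, the TWEAK gene itself, had 23.6 points. None of the 35 shared sites near the receptor gene TNFRSF12A rose, nor any near NFKB1 (16), RELA (39), BIRC2 (18), BIRC3 (19), TRAF2 (56) or TRAF3 (20).

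Among known NF-κB target genes 16 of 476 sites rose (3.36%) and 10 fell, with a median margin of -4.19 points. The rising promoter of MMP9, which encodes a matrix metalloproteinase, at chr20:46008056-46009730, held both motifs and had folds of 6.41 and 6.71 untreated and 23.2 and 35.2 with TWEAK. A site 47706 bp from CXCL1, a chemokine gene, had 4.74 and 6.71 untreated and 29.2 and 30.3 with TWEAK, with an AP-1 match. A site 19295 bp from CCL2 held 2 NF-κB matches and had 5.58 and 6.26 untreated and 21.6 and 20.6 with TWEAK. IL6, CCL20, ICAM1, IER3 and CD83 each had 2 rising sites within 100 kb, and CXCL8 and CXCL2 had none.

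The list of mesenchymal, basal and invasion genes had the highest share, 16 of 297 sites (5.39%), with 6 falling and a median margin of -3.83 points. TP63, the gene of the basal regulator p63, had 5 of 29 sites rising and none falling, and its largest, in an intron, had folds of 3.35 and 3.58 untreated and 11.4 and 15.7 with TWEAK. A site 9142 bp from ITGB6, which encodes the integrin β6 chain, held 2 NF-κB matches, with 5.02 and 4.03 untreated and 33.8 and 42.8 with TWEAK. It was the only rising one of 30 sites near ITGB6, of which 2 fell. SNAI1, the gene of an epithelial-mesenchymal transition factor, had 4 of 71 sites rising and 2 falling, the largest rise at chr20:49929810-49930356 with folds of 4.18 and 7.60 untreated and 73.7 and 87.2 with TWEAK, and its nearest gene was RNF114. No site rose within 100 kb of 7 of the 15 genes, which were ZEB1, ZEB2, SNAI2, TWIST1, CDH2, ITGB3 and KRT5. TWIST1 was the nearest gene of a rising site just past that limit, at 106303 bp, with folds of 3.62 and 4.47 untreated and 13.3 and 14.6 with TWEAK.

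Luminal and HER2 genes had 12 of 550 sites rising (2.18%) and 13 falling, with a median margin of -5.72 points, which is close to all shared sites. TFAP2A had 3 rising sites and TFAP2C, which encodes AP-2γ, had 2, while ERBB2 had 2 of 117. Of the 550 sites near AP-1 and small MAF genes, 6 rose (1.09%) and 9 fell, with a median margin of -5.58 points and the largest margin, 23.7 points, near BATF2. NAD metabolism genes had 5 of 235 sites rising (2.13%) and 6 falling (2.55%), with a median margin of -3.81 points. These 5 lay near 4 of the 10 genes, among them NMNAT1, NMNAT3 and SIRT1. Within 100 kb of NAMPT, the gene of the rate-limiting enzyme of NAD salvage, none of 19 sites rose and 1 fell. Beyond that limit NAMPT was the nearest gene of a rising site 139187 bp away, named after its values were seen, which held an NF-κB match and had folds of 10.04 and 11.63 untreated and 81.7 and 82.3 with TWEAK. Genes of MHC class I presentation had 1 of 139 sites rising (0.719%), near HLA-E, and 3 falling, with a median margin of -5.58 points, and that site held both motifs with folds of 6.13 and 9.84 untreated and 20.1 and 24.9 with TWEAK. No test over lists was run.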

How the data were processed

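Peak lists from ATAC-seq of SKBR3 cells, 2 untreated and 2 TWEAK libraries, were used, with groups and replicate numbers taken from the sample titles. Per the methods and the submitters' processing notes, reads were trimmed with Trimmomatic and mapped to hg38 with Bowtie2, mitochondrial reads and duplicates were removed with Bamtools and Picard, and peaks were called with MACS2. Versions and calling settings were not given in the sources used here. Every deposited peak is 501 bp wide, and each list was called on its own library.

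The value deposited by the authors for each peak is unnamed and was read as a -log10 p-value. In each list 100% of values equalled the Poisson upper tail of a whole-number pileup, to within 0.25 of a step, over 1 background per list, with a largest error over the 40 lowest values between 5.05e-05 and 6.11e-05. The lowest listed pileup was 7 to 10. Depth differs between lists, so values were ranked within a list, ties averaged, and compared across lists only as percentiles or as fold over background.

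Peaks on chromosomes 1 to 22 and X were merged where they overlapped by at least 1 bp, and the best peak of each library stood for a site. All 55 sequence names were found in the hg38 reference, and 0 peaks passed its ends. Motifs were consensus letters, the NF-κB motif being the common 10-base κB consensus, and all shared sites served as their background. Genes were protein-coding genes of GENCODE release 44. Sites named were the 10 largest margins, 3 on each side of the threshold, the 10 genes nearest to most rising sites and up to 5 sites per gene list. Some items that this rule or the marker list selects are not reported here. The members, motifs and lists were chosen with earlier results of these data known. Differential testing of read counts with DiffBind, used by the study, needs reads and was not run. The exact permutation test planned for motif sites uses the same ranks as the rule, so its p-value is left out and no test is reported. Intervals are 95% Wilson intervals over sites.

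Alternatives were other margins, ranks, tie rules, merging, thresholds, windows, leaving out each library and a replicate block. Replicate numbers were not taken as pairs, since with 2 pairs the correlation of same-numbered deviations was -0.00607. Code was tested on simulated data and run with Python 3.11.15, NumPy 2.4.6, SciPy 1.17.1, pandas 2.3.3 and pysam 0.24.0.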

Additional observations from a re-analysis of the deposited data

How the results depend on the processing

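The number of rising sites depended on the rule and on each library, since the margin and the fold scale set how many pass. It was 4860 at a margin of 10 points and 1752 at 20 points, 5005 with percentiles over shared sites only, and 8280 with a fold ratio of at least 1.5. Leaving out 1 library gave 3856 to 7743 sites, with 5929 without untreated replicate 1, 7743 without untreated replicate 2 and 5584 without TWEAK replicate 2, and 99.2% to 99.7% of the 2936 sites were found again each time, which follows from the rule, since leaving out a library can only widen a margin apart from changes in merging. With only peaks of -log10 p of at least 5, 59.1% were found again.

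The NF-κB share of rising sites moved to 24.8% and 35.4% at margins of 10 and 20 points, 24.7% over shared sites only, 24.3% with -log10 p of at least 5, 19.9% by fold, 21.1% and 37.3% with windows of 50 and 250 bp, and 10.6% with the stricter consensus. Without 1 library it was 19.0% to 25.8%. In the 16 alternatives run for it, it stayed 2.77 to 8.99 times that of all shared sites. The AP-1 share moved to 25.1% over shared sites only, 26.0% with -log10 p of at least 5, 25% by fold, 16.5% and 29.5% with windows of 50 and 250 bp, and 21.04% to 23.3% without 1 library, which was 1.93 to 2.36 times that of all shared sites. The promoter share moved to 8.90% by fold, 5.79% and 12.3% with promoters of 0.5 and 2 kb, and 8.62% to 9.21% without 1 library.

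The replicate block, which asked for the margin within each replicate number, gave 3551 sites with an NF-κB share of 27.6%, and changed no direction. The rank difference of motif sites kept its sign in the 11 alternatives run for it, from 6.02 to 8.36 points for NF-κB and from 5.06 to 5.89 for AP-1. Causes of these shifts beyond their construction were not tested.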
